A study of Macaca mulatta with 33 samples.

Results

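Rhesus corpora lutea given human chorionic gonadotropin (hCG), trilostane (TRL) and the synthetic progestin R5020 were compared with untreated corpora lutea at luteal day 10, on 8 of the 33 Affymetrix Rhesus Genome arrays of the series. The 4 hCG+TRL+R5020 arrays are replicates 1 to 4 of that group. The 4 untreated arrays are replicates 6 to 9 of the untreated group, chosen because the number in the array names places all 8 arrays in array set 2. All tissue came from adult cycling female rhesus macaques and was dissected luteal tissue, from which total RNA was taken. The treated females received hCG in rising doses from luteal day 9, for 1 day, in a protocol called simulated early pregnancy, together with TRL and R5020. The untreated females received none of the 3 agents, so this comparison does not separate the agents from one another. The sources used here give no doses, ages or vehicle treatment, and the labels do not say whether each array is a separate animal. The p-values therefore measure the spread between arrays, pooled over the groups of all 33, which may in part be technical. For comparison, array set 1 holds 4 hCG+TRL arrays and 4 hCG arrays of luteal day 10, with untreated replicates 1 to 4 as their own controls.

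The corpus luteum forms from the ruptured follicle and secretes progesterone, which it makes from cholesterol. Chorionic gonadotropin from an implanting embryo acts through the receptor for luteinizing hormone and cyclic AMP (cAMP) and keeps the gland secreting beyond its usual life. Trilostane blocks 3-beta-hydroxysteroid dehydrogenase, which converts pregnenolone to progesterone. R5020 (promegestone) activates the progesterone receptor without that enzyme, so the combination supplies hCG and a progestin while the gland's own progesterone synthesis is inhibited.

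Each value below is a level on the log2 scale, after each array was centred on its median, and a change of 1 is a doubling of intensity. Of 24956 probe sets with a single gene symbol, 17603 were above 6.19, the median over all arrays and probe sets, in 4 or more of the arrays, and they represent 10506 genes. A gene is shown by its brightest such probe set. STAR, which carries cholesterol into mitochondria and marks steroid-making cells, averaged 14.71 ± 0.04 in hCG+TRL+R5020 tissue and 14.55 ± 0.08 in untreated tissue (SD, n = 4 each), near the top of the scale. HSD3B2, the enzyme trilostane blocks, averaged 13.62 ± 0.21 in hCG+TRL+R5020 tissue and 13.41 ± 0.33 in untreated tissue. Untreated replicate 7 stood apart from the other untreated arrays. The SD of its differences from them was 0.475 to 0.539, against 0.342 to 0.39 among the other untreated arrays and 0.329 to 0.419 among the hCG+TRL+R5020 arrays. It was retained, and the counts without it are given beside the results they alter.

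After 1 day of hCG, TRL and R5020, 115 probe sets were higher and 153 lower than in untreated tissue at a Benjamini-Hochberg adjusted p under 0.05 (limma), which is 0.929% of the 28862 tested. They name 113 genes (1.08% of those measured), 46 higher (0.438% of the genes) and 67 lower (0.638%), and 97 of the called probe sets have no single symbol. The median change was 1.05 among the genes that rose and -0.88 among those that fell, and 50 genes changed over 2-fold, 24 upward and 26 downward. The plot of change against level shows the called genes spread over most of the intensity range. In 102 of the 113 genes the 4 and 4 arrays did not overlap, against 687 of all 10506 genes (6.54%), a share that the choice of the genes on these same arrays raises, so it supports nothing further. Without untreated replicate 7 the fit called 397 probe sets, 161 higher and 236 lower, and 103 of the 113 genes remained called. Leaving out any other single array gave 128 to 228. The spread is shared among all 33 arrays, and a fit of the 8 arrays alone called 20 probe sets, with 10 of the 113 genes among them. Below, a call is said to hold or to be lost in the 8 refits that each left out 1 of these arrays, and all 113 genes kept their sign in them.

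**Figure D1:**
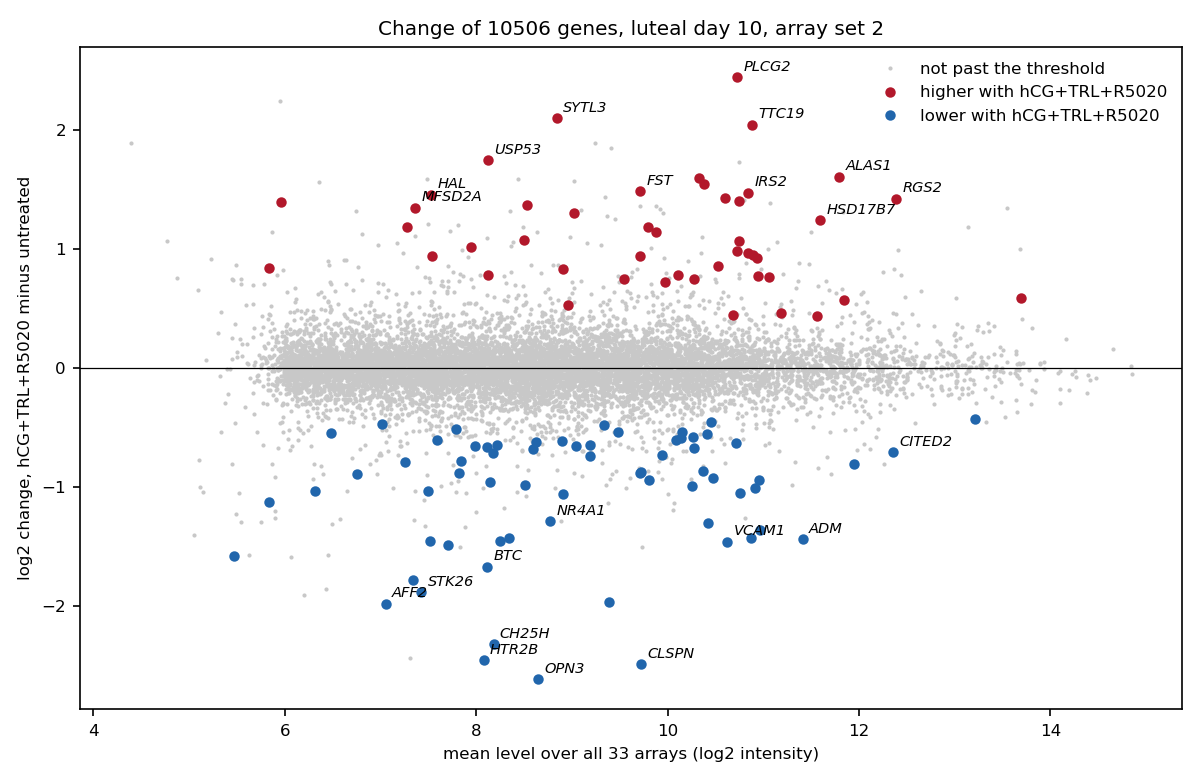
Each point is 1 of 10506 genes, with its mean level over all 33 arrays (log2 intensity) on the horizontal axis and its log2 change, hCG+TRL+R5020 minus untreated, on the vertical axis. The 46 genes that rose are red and the 67 that fell are blue, and the called changes run from PLCG2 at 2.45 to OPN3 at -2.62.

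USP53, FST, IRS2, ALAS1 and HAL were among the genes that rose. USP53, a member of the ubiquitin-specific protease family, had the smallest adjusted p. It read 8.22, 8.80, 8.39 and 8.52 in the 4 hCG+TRL+R5020 arrays, against 7.04, 6.54, 7.11 and 6.25 in the untreated arrays, a change of 1.75 ± 0.20 (SE; 3.36-fold, limma adjusted p = 5.3e-05). FST, which encodes follistatin, the secreted protein that binds and neutralises activin, read 10.83, 10.73, 10.63 and 10.32 in hCG+TRL+R5020 tissue, against 9.25, 9.69, 8.63 and 8.98 in untreated tissue. Its change was 1.49 ± 0.28 (2.80-fold, limma adjusted p = 0.0063), and all 3 of its probe sets rose. In both genes every treated array lay above every untreated array, and the calls held without any 1 of the 8 arrays.

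IRS2, an adaptor of the insulin and IGF receptors, read 11.75, 11.32, 11.68 and 11.54 in hCG+TRL+R5020 tissue, against 10.50, 10.06, 10.02 and 9.80 in untreated tissue (2.78-fold, limma adjusted p = 0.013). ALAS1, the rate-limiting enzyme of haem synthesis outside red cells, read 13.10, 13.23, 12.62 and 12.74 in hCG+TRL+R5020 tissue, against 11.28, 12.32, 10.80 and 10.83 in untreated tissue (3.06-fold, limma adjusted p = 0.01). Both sets of arrays were separate, with untreated replicate 7 the highest untreated value for ALAS1. Without untreated replicate 9 the adjusted p was 0.064 for IRS2 and 0.059 for ALAS1 (limma). HAL, which starts the breakdown of histidine, read 9.42, 9.35, 9.19 and 8.73 in hCG+TRL+R5020 tissue, against 8.12, 7.72, 7.77 and 7.24 in untreated tissue (2.75-fold, limma adjusted p = 0.0082). Its call held without any 1 array.

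Some of the largest rises kept their direction in those refits, while their size shifted and their adjusted p crossed the threshold. PLCG2, a phospholipase C of receptor signalling, rose by 2.45 ± 0.59 on the log2 scale (limma adjusted p = 0.043), with 11.43 to 12.31 in hCG+TRL+R5020 tissue and 7.87 to 10.83 in untreated tissue. Its other probe set changed by 0.16. With 1 array left out its change was 1.95 to 2.93, and the call held only without untreated replicate 7, with an adjusted p of up to 0.19 (limma). TTC19, which takes part in assembly of respiratory complex III, rose by 2.05 ± 0.46 (limma adjusted p = 0.025), but its other probe sets changed by -0.38 and -0.25, and the call held only without untreated replicate 7 or 8, with a change of 1.76 to 2.37 over the refits. SYTL3, which tethers secretory vesicles, rose by 2.10 ± 0.40 (limma adjusted p = 0.0076), and its call held without any 1 array. Its other probe set changed by 0.87 and did not pass. MIA2, which helps to export bulky cargo from the endoplasmic reticulum, rose by 1.43 ± 0.28 (limma adjusted p = 0.0099) and also held, although its other probe sets changed by between -0.02 and 1.44. MFSD2A, a transporter of lysophosphatidylcholine, read 8.84, 8.36, 8.74 and 7.71 in hCG+TRL+R5020 tissue, against 7.15, 7.13, 7.10 and 6.86 in untreated tissue (2.55-fold, limma adjusted p = 0.022). The groups did not overlap, and the call was lost without untreated replicates 6, 8 or 9 or hCG+TRL+R5020 replicates 1 or 3, with an adjusted p of up to 0.099 (limma) and a change of 1.21 to 1.58.

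CH25H, CLSPN, VCAM1, ADM and BTC were among the genes that fell. CH25H, which makes an oxysterol from cholesterol, read 7.75, 8.05, 8.01 and 7.25 in hCG+TRL+R5020 tissue, against 10.24, 9.72, 10.53 and 9.88 in untreated tissue. It fell by 2.32 ± 0.38 on the log2 scale (5.01-fold lower, limma adjusted p = 0.0024). CLSPN, which encodes the replication checkpoint adaptor claspin, read 9.22, 8.83, 8.80 and 9.45 in hCG+TRL+R5020 tissue, against 12.18, 10.56, 12.43 and 11.10 in untreated tissue (5.63-fold lower, limma adjusted p = 0.0023). In both genes the groups were more than 1 log2 unit apart at their closest, and both calls held without any 1 array.

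VCAM1, an adhesion molecule that binds leukocytes, read 10.06, 9.93, 10.54 and 9.84 in hCG+TRL+R5020 tissue, against 11.53, 11.20, 11.51 and 11.97 in untreated tissue (2.75-fold lower, limma adjusted p = 0.0024). ADM, which encodes the vasodilator peptide adrenomedullin, read 10.53, 11.06, 11.33 and 10.52 in hCG+TRL+R5020 tissue, against 12.20, 12.38, 12.35 and 12.29 in untreated tissue (2.71-fold lower, limma adjusted p = 0.0096). BTC, the EGF receptor ligand betacellulin, read 6.87, 7.47, 7.50 and 7.73 in hCG+TRL+R5020 tissue, against 9.05, 8.12, 9.14 and 9.93 in untreated tissue (3.19-fold lower, limma adjusted p = 0.0063). None of the 3 genes overlapped between groups, and their calls held without any 1 array. The protein kinases STK26 and STK17B fell by 1.88 ± 0.34 and 1.49 ± 0.25 on the log2 scale (limma adjusted p = 0.0062 and 0.0031). ENOX1, a cell surface NADH oxidase, fell by 1.78 ± 0.28, and AFF2, a nuclear protein linked to a fragile site of the X chromosome, fell by 1.98 ± 0.31 (limma adjusted p = 0.0024 and 0.0023). Those 4 calls also held without any 1 array.

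The opsin gene OPN3 had the largest fall, with 7.19, 7.71, 9.15 and 7.94 in hCG+TRL+R5020 tissue, against 11.15, 9.40, 11.20 and 10.70 in untreated tissue (6.13-fold lower, limma adjusted p = 0.037). HTR2B, a serotonin receptor, read 6.29, 6.31, 7.72 and 7.93 in hCG+TRL+R5020 tissue, against 9.51, 8.55, 9.84 and 10.18 in untreated tissue (5.49-fold lower, limma adjusted p = 0.028). The groups did not overlap in either gene, but the adjusted p (limma) reached 0.15 for OPN3 and 0.12 for HTR2B when 1 array was left out, untreated replicates 6, 8 and 9 and hCG+TRL+R5020 replicates 1 and 2 each ending both calls and hCG+TRL+R5020 replicate 4 that of OPN3. TMEM200A, a membrane protein, averaged under 6.19 in hCG+TRL+R5020 tissue and was at least 1.58-fold lower there (limma adjusted p = 0.049), a call that held only without untreated replicate 6 or 7.

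**Figure D2:**
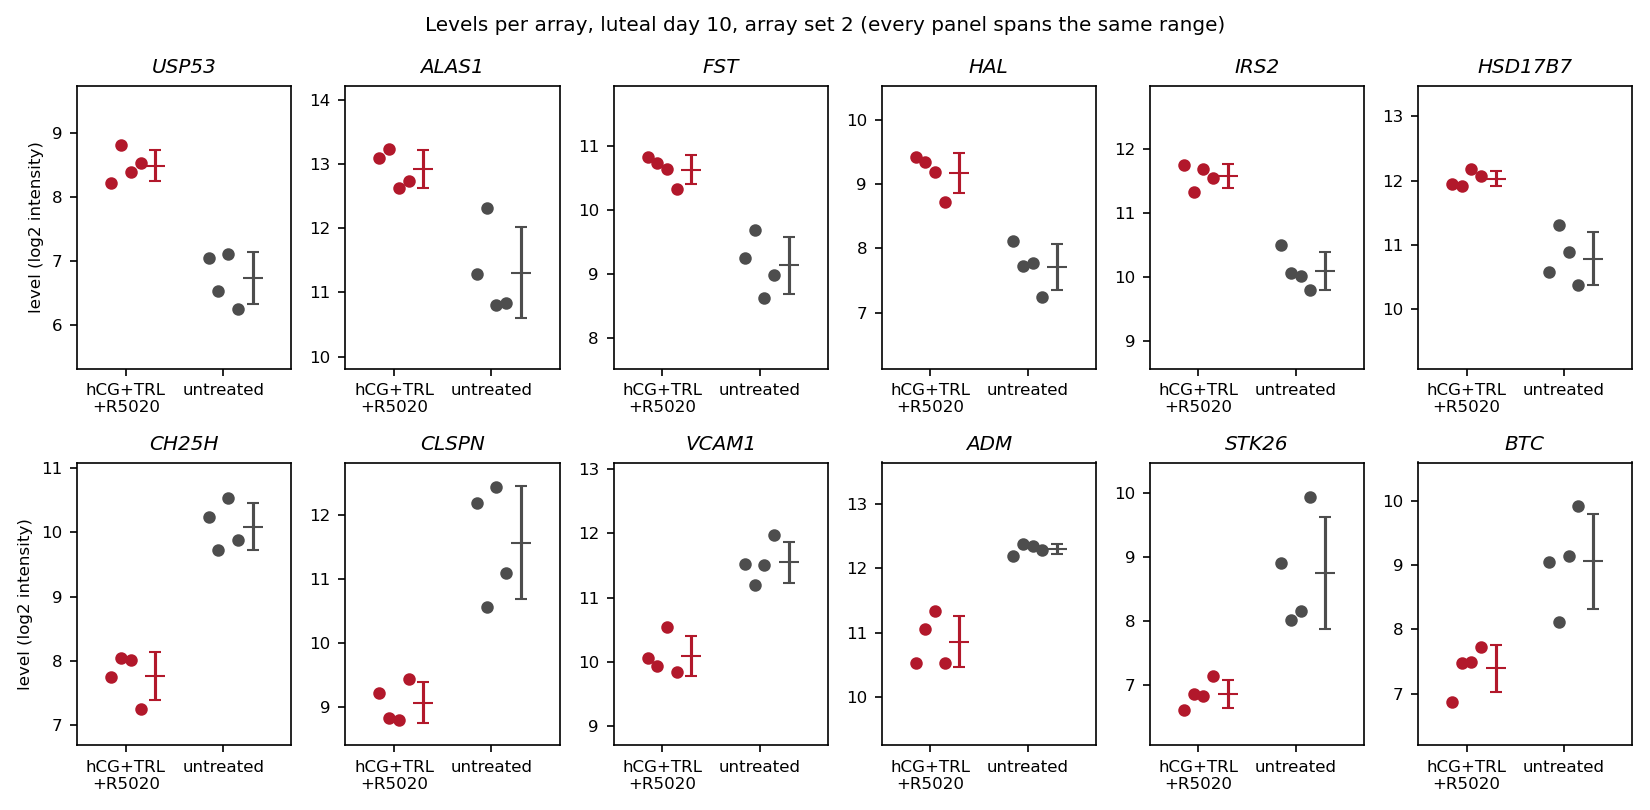
Levels of 12 genes (log2 intensity) in each of the 4 hCG+TRL+R5020 arrays and 4 untreated arrays, with the mean and SD beside the points. Every panel spans the same range of log2 units. In all 12 genes, picked among the called genes of these same arrays, the groups do not overlap, which follows in part from the choice. The upper genes are higher and the lower genes lower in hCG+TRL+R5020 tissue.

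The immediate early genes, transcription factors and feedback regulators that cells switch on within minutes of a stimulus, had changes below 0 in hCG+TRL+R5020 tissue. All 24 measured members had changes below 0, against 5203 of all 10506 genes, and the median change was -0.38 against 0.00 for all genes. By the test 3 fell, namely NR4A1, IER2 and JUNB, and none rose, against 0.638% and 0.438% of all genes. The mean deviation of the list ran from -0.35 to -0.13 in the 4 hCG+TRL+R5020 arrays, against 0.14 to 0.51 in the untreated arrays. The groups thus did not overlap on it. Of the 35 lists, neither did those for steroid hormone synthesis, EGF family and ovulatory genes, inflammatory genes, antioxidant enzymes and luteal cell markers. The other lists overlapped, and of all 10506 genes 6.54% did not. For luteal cell markers the closest arrays were at 0.06 (hCG+TRL+R5020) and 0.05 (untreated), and for inflammatory genes at -0.02 and 0.03. The steroid synthesis and luteal cell lists share genes. The median of the immediate early genes stayed between -0.50 and -0.33 in every alternative run. NR4A1, an orphan nuclear receptor induced by cAMP, read 8.45, 8.63, 8.25 and 8.61 in hCG+TRL+R5020 tissue, against 10.46, 9.61, 9.18 and 9.86 in untreated tissue (2.45-fold lower, limma adjusted p = 0.0085). Its other probe set fell by 1.65 on the log2 scale and also passed. IER2 read 10.27, 10.44, 10.00 and 10.34 in hCG+TRL+R5020 tissue, against 11.24, 10.87, 10.71 and 10.91 in untreated tissue (1.59-fold lower, limma adjusted p = 0.014). JUNB, a subunit of the AP-1 transcription factor, was 8.50, 8.59, 8.62 and 8.54 in hCG+TRL+R5020 tissue, against 9.50, 8.99, 9.28 and 8.98 in untreated tissue (1.54-fold lower, limma adjusted p = 0.029). NR4A1 held without any 1 array, IER2 was lost without untreated replicate 6 or hCG+TRL+R5020 replicate 3 (adjusted p up to 0.082), and JUNB held only without untreated replicate 7 or 9. EGR2 and FOS had larger mean differences, -1.59 ± 0.56 and -1.51 ± 0.64, that did not pass (limma adjusted p = 0.22 and 0.38), and EGR2 averaged under 6.19 in hCG+TRL+R5020 tissue.

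**Figure D3:**
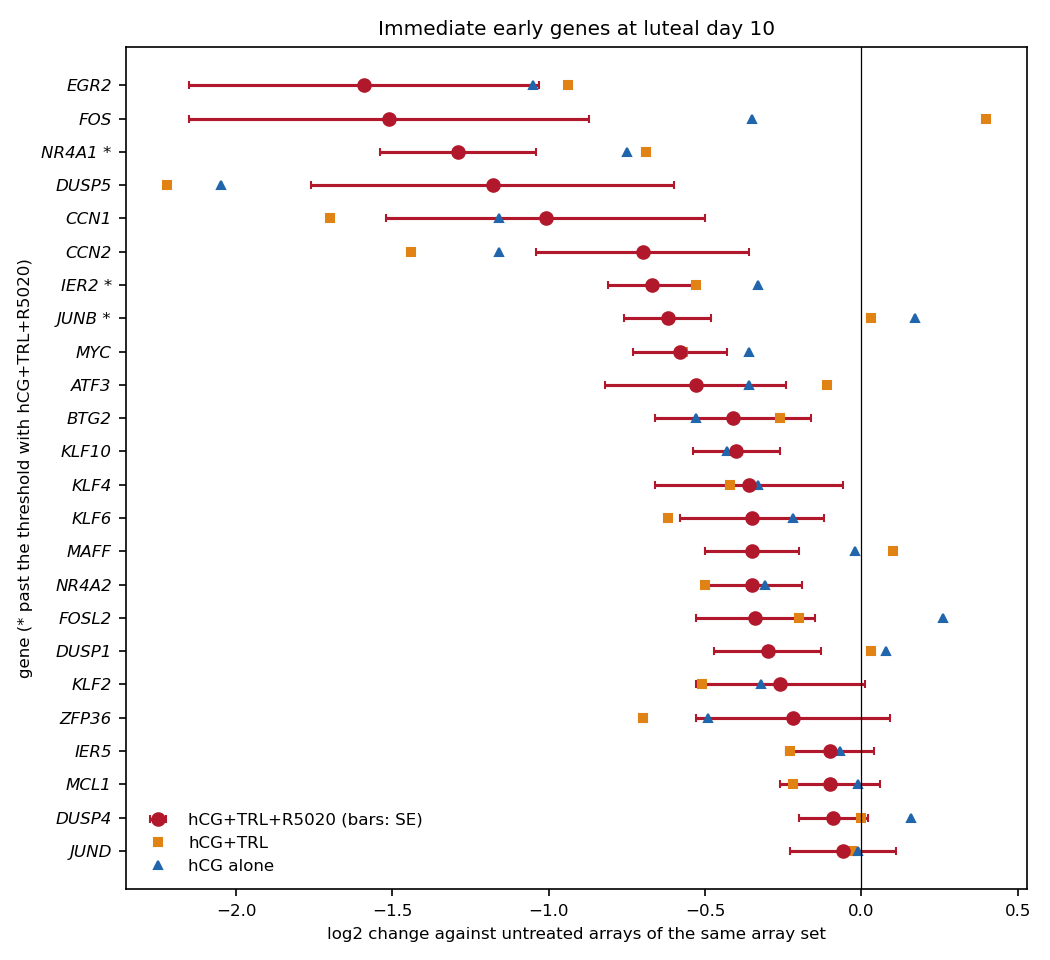
Log2 change of the 24 measured immediate early genes in hCG+TRL+R5020 tissue (circles, bars are the SE), hCG+TRL tissue (squares) and hCG tissue (triangles), each against the untreated arrays of its own array set. All circles lie below 0, as do 19 squares and 20 triangles, and an asterisk marks the 3 genes that passed with hCG+TRL+R5020.

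Genes of steroid hormone synthesis lay mostly slightly above 0, and 1 of 21 measured members passed, against 1.08% of all genes. The list's median change was 0.17, with 18 members above 0, against 0.00 and 5303 of 10506 for all genes. HSD17B7, which acts in both cholesterol and estradiol synthesis, read 11.95, 11.92, 12.18 and 12.07 in hCG+TRL+R5020 tissue, against 10.58, 11.31, 10.89 and 10.37 in untreated tissue (2.37-fold, limma adjusted p = 0.017). All 3 of its probe sets rose, and the call was lost without untreated replicate 6 or 9 or hCG+TRL+R5020 replicate 3 (adjusted p up to 0.091, limma). STAR differed by 0.16 ± 0.05 and HSD3B2 by 0.21 ± 0.28, neither past the threshold (limma adjusted p = 0.21 and 0.90). CYP17A1, which makes androgen precursors, averaged 1.36 ± 0.41 higher (limma adjusted p = 0.12), and CYP11B1, a steroid 11-beta-hydroxylase, 1.89 ± 0.61 higher (limma adjusted p = 0.16).

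CYP19A1, aromatase, read 13.27, 13.56, 13.65 and 13.34 in hCG+TRL+R5020 tissue, against 11.76, 13.66, 13.25 and 10.41 in untreated tissue. The untreated arrays spread over more than 3 log2 units and included the highest value of all, in replicate 7. The difference of 1.18 ± 0.44 did not pass (limma adjusted p = 0.26). It became 1.65 with an adjusted p of 0.042 (limma) without untreated replicate 7, and 0.56 without untreated replicate 9.

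Of 19 measured genes of cholesterol synthesis, 1 rose, HSD17B7 again, and none fell, against 0.438% and 0.638% of all genes. Of the 19, 14 were above 0 with a median of 0.41, against 5303 of 10506 and 0.00 for all genes. DHCR7, the last enzyme on the way to cholesterol, averaged 1.01 ± 0.30 higher (limma adjusted p = 0.11). Without untreated replicate 7 it was 1.28 higher with an adjusted p of 0.024 (limma). IDI1, CYP51A1, SQLE, EBP and FDFT1 differed by 0.88, 0.74, 0.71, 0.67 and 0.64 without passing, while the regulators SREBF1 and SREBF2 differed by -0.27 and -0.13. The list's mean deviation overlapped between groups, from -0.19 to 0.46 in hCG+TRL+R5020 arrays and from -0.47 to 0.10 in untreated arrays. MYLIP, a ubiquitin ligase induced by oxysterols, was the 1 called gene among 19 of cholesterol uptake, storage and efflux (1.08% of all genes were called). It fell to a mean of 9.38 ± 0.28 in hCG+TRL+R5020 tissue, against 10.26 ± 0.07 in untreated tissue (SD, n = 4 each, limma adjusted p = 0.036). That call held only without hCG+TRL+R5020 replicate 2, and its other probe sets, at -0.68 and -0.49, did not pass. MID1IP1, which activates acetyl-CoA carboxylase, was the 1 called gene of 15 in fatty acid synthesis. It fell by 0.92 ± 0.19 on the log2 scale (limma adjusted p = 0.014), while its other probe set changed by 0.12, and the call was lost without untreated replicate 6 or hCG+TRL+R5020 replicates 1 or 3 (adjusted p up to 0.072).

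In the cAMP and insulin lists 3 of 35 and 2 of 23 genes passed, against 1.08% of all genes. The lists were chosen with earlier results of these data known, so the larger share supports nothing further. The list medians were -0.06 and -0.12. In the cAMP list PDE7B, a phosphodiesterase that degrades cAMP, and RGS2, which speeds the shut-off of G proteins, rose by 1.37 ± 0.30 and 1.43 ± 0.30 (limma adjusted p = 0.021 and 0.016), and NR4A1 fell. RGS2 was bright, at 13.45, 13.28, 13.59 and 12.73 in hCG+TRL+R5020 tissue, against 12.04, 11.40, 12.30 and 11.60 in untreated tissue. RGS2 was lost without untreated replicate 9 or hCG+TRL+R5020 replicate 1 or 3 (adjusted p up to 0.077), and PDE7B without untreated replicate 6, 8 or 9 or hCG+TRL+R5020 replicate 1 or 3 (adjusted p up to 0.11). In the list of insulin and IGF genes, IRS2 rose and GRB14, an adaptor that inhibits the insulin receptor, fell by 1.36 ± 0.34 on the log2 scale (limma adjusted p = 0.047), a call that held only without untreated replicate 7.

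Of 29 genes of activin, inhibin, BMP and TGF-beta signalling, FST rose, and BMP4 and SMAD3 fell, against 0.438% and 0.638% of all genes. BMP4, a secreted growth factor, read 7.54, 7.20, 7.09 and 7.33 in hCG+TRL+R5020 tissue, against 8.97, 7.93, 8.13 and 8.27 in untreated tissue (2.05-fold lower, limma adjusted p = 0.0083), and held without any 1 array. SMAD3, which carries activin and TGF-beta signals to the nucleus, fell by 0.99 ± 0.20 on the log2 scale (limma adjusted p = 0.013), with its other probe sets at -0.59 to -0.56 and not passing, and was lost without untreated replicate 9 or hCG+TRL+R5020 replicate 1 (adjusted p up to 0.081). The remaining 26 members did not pass, among them the activin subunit gene INHBA at -0.64 and the inhibin subunit gene INHA at 0.04.

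In the list of 16 EGF family and ovulatory genes, BTC and RUNX2 fell, against 0.638% of all genes, 12 members were below 0, against 5203 of all 10506 genes, and the median was -0.20. RUNX2, a transcription factor induced at ovulation, read 11.38, 11.82, 11.65 and 11.91 in hCG+TRL+R5020 tissue, against 12.69, 12.08, 12.45 and 12.77 in untreated tissue (1.75-fold lower, limma adjusted p = 0.024). Its other 4 probe sets changed by between -0.53 and -0.10, and none of them passed. The call was lost without untreated replicate 6, 8 or 9 or hCG+TRL+R5020 replicate 1 or 3 (adjusted p up to 0.11). AREG, the ligand amphiregulin, averaged 13.03 ± 0.11 in hCG+TRL+R5020 tissue and 13.72 ± 0.24 in untreated tissue (SD, n = 4 each). Its groups did not overlap, yet the difference of -0.69 ± 0.38 did not pass with the spread of all 33 arrays (limma adjusted p = 0.59).

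Among 25 angiogenic and vasoactive genes ADM and PGF, the placental growth factor, fell and none rose, against 0.638% and 0.438% of all genes. The list median was 0.00. PGF fell by 0.47 ± 0.12 on the log2 scale (limma adjusted p = 0.049), and its call held only without untreated replicate 6. CITED2, a transcriptional co-regulator, fell by 0.71 ± 0.13 (limma adjusted p = 0.0057) and held without any 1 array. Its other probe set changed by -0.63 and did not pass. CITED2 was the 1 called gene among 10 granulosa cell markers, against 1.08% of all genes. Of these markers 7 were above 0, against 5303 of all 10506 genes, with a median of 0.05. BBC3, the BH3-only death factor PUMA, was the 1 called gene among 19 apoptosis regulators (1.08% of all genes were called), of which 15 were below 0, against 5203 of all 10506 genes. It was 8.33, 8.13, 7.95 and 7.94 in hCG+TRL+R5020 tissue, against 9.17, 8.64, 8.36 and 8.77 in untreated tissue (1.57-fold lower, limma adjusted p = 0.032). The call was lost without untreated replicate 6 or 9 or hCG+TRL+R5020 replicate 2, 3 or 4 (adjusted p up to 0.15).

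Genes known to respond to progestins and glucocorticoids lay about evenly above and below 0. Of 29 measured, IRS2 and RGS2 rose and none fell, against 0.438% and 0.638% of all genes. Of the 29, 14 were above 0 with a median of -0.03. Both genes also passed without R5020 in array set 1. IRS2 rose by 1.48 with hCG+TRL+R5020, 1.82 with hCG+TRL and 1.35 with hCG, and RGS2 by 1.43, 1.5 and 1.16. FKBP5, a co-chaperone induced by both receptors, averaged 0.57 ± 0.34 higher (limma adjusted p = 0.64), and 0.24 higher without hCG+TRL+R5020 replicate 3. PGR, the progesterone receptor, read 6.61, 6.48, 6.42 and 6.69 in hCG+TRL+R5020 tissue, against 7.21, 6.31, 7.14 and 6.58 in untreated tissue (limma adjusted p = 0.81). The PGR levels overlapped and lay near the median of all values. ELF5, an epithelial transcription factor, and the membrane protease TMPRSS7 each lay above 8 in hCG+TRL+R5020 replicates 1 and 3 and under 6 in replicate 4. ELF5 read 8.32, 7.75, 8.84 and 5.53 there, against 6.35, 5.74, 5.87 and 6.22 in untreated tissue, and TMPRSS7 read 8.16, 6.46, 8.87 and 5.35, against 4.53, 4.40, 6.15 and 4.77 in untreated tissue. Neither passed (limma adjusted p = 0.49 and 0.23). None of 14 hormone receptor genes was called, against 1.08% of all genes.

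VCAM1 and IL18, an inflammatory cytokine, fell among 23 inflammatory genes, and none rose, against 0.638% and 0.438% of all genes. IL18 read 6.95, 7.73, 7.80 and 7.37 in hCG+TRL+R5020 tissue, against 9.11, 8.05, 9.73 and 8.81 in untreated tissue (2.75-fold lower, limma adjusted p = 0.049), a call that held only without untreated replicate 7. DDX60, an antiviral helicase, was the 1 called gene among 30 interferon-response genes (1.08% of all genes were called). It rose by 0.77 ± 0.19 (limma adjusted p = 0.045), its other probe set changed by 0.05, and the call held only without untreated replicate 7 or hCG+TRL+R5020 replicate 3.

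No gene of the lists for cell division (29 measured), oxidative phosphorylation (31), extracellular matrix and proteases (34), WNT signalling (27) or antioxidant enzymes (25) passed, and their medians ran from 0.00 to 0.10. In whole tissue, fewer cells of a type and less RNA per cell cannot be told apart. No marker of luteal cells (9 measured), epithelium (11), red cells (3), neutrophils and mast cells (4), lymphocytes (11), macrophages (16), fibroblasts (13), pericytes (10) or endothelium (18) was called. Only 1.08% of all genes were called, so the lack of calls does not set these lists and markers apart. The luteal cell markers had a median of 0.16, with 7 of 9 above 0, against 0.00 and 5303 of 10506 for all genes. Their mean deviation was 0.06 to 0.19 in the hCG+TRL+R5020 arrays and -0.43 to 0.05 in the untreated arrays, without overlap. The fibroblast markers had a median of 0.24 with 11 of 13 above 0, and a mean deviation of 0.70 in hCG+TRL+R5020 replicate 1, against -0.15 to -0.04 in the other 3 arrays of that group and -0.37 to 0.20 in the untreated arrays. The macrophage markers deviated by -0.24 to 0.24 in the hCG+TRL+R5020 arrays, and by -0.51, 0.54, 0.29 and -0.30 in untreated replicates 6, 7, 8 and 9. The 3 red cell markers had a median of 0.50 and overlapped between the groups. The part of these cell types in the gene changes was not tested.

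The genes called with hCG, TRL and R5020 were next set beside the comparisons of array set 1, which use other untreated arrays. There, hCG+TRL called 111 genes higher (1.06% of the 10506) and 158 lower (1.5%), together 2.56%, and hCG alone called 402 higher (3.83%) and 118 lower (1.12%), together 4.95%. In set 1 the hCG and untreated arrays, but not the hCG+TRL arrays, are marked in their titles as a reanalysis, a mark that cannot be told apart from trilostane there. Of the 46 genes that rose with hCG+TRL+R5020, 33 rose with hCG+TRL (71.7% of the 46 and 29.7% of the 111) and 34 rose with hCG (73.9% of the 46 and 8.46% of the 402). All 46 had a positive change in both set 1 comparisons, as did 41.2% of all genes with hCG+TRL and 61.7% with hCG. Their median change was 1.05 with hCG+TRL+R5020, 1.11 with hCG+TRL and 1.12 with hCG alone. USP53 rose by 1.75, 1.98 and 1.20 in that order, FST by 1.49, 1.71 and 2.12, and MFSD2A by 1.35, 1.46 and 2.34.

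Of the 67 genes that fell with hCG+TRL+R5020, 38 fell with hCG+TRL (56.7% of the 67 and 24.1% of the 158) and 24 fell with hCG alone (35.8% of the 67 and 20.3% of the 118). None was called in the opposite direction. The change was negative for 66 of the 67 with hCG+TRL and 64 with hCG, as it was for 58.8% and 38.3% of all genes. The median change of the 67 was -0.88 with hCG+TRL+R5020, -0.72 with hCG+TRL and -0.51 with hCG alone. Since the genes were chosen on the first of these, larger values in it follow in part from the choice. CH25H differed by -2.32 with hCG+TRL+R5020, -1.21 with hCG+TRL and -0.61 with hCG, and passed in the first alone. CLSPN differed by -2.49, -0.86 and -0.93 in that order and also passed in the first alone. HTR2B and STK17B passed in all 3, with -2.46, -3.02 and -2.86 for HTR2B and -1.49, -2.16 and -1.82 for STK17B.

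**Figure D4:**
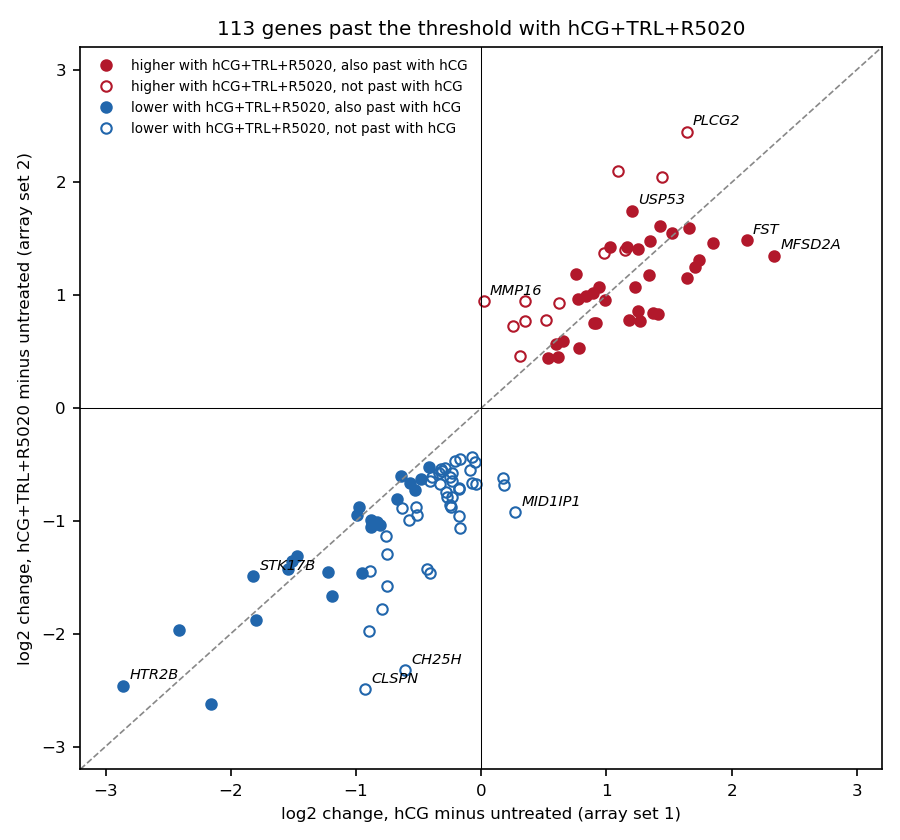
The 113 genes called with hCG+TRL+R5020, each with its log2 change against untreated tissue with hCG alone (array set 1, horizontal axis) and with hCG+TRL+R5020 (array set 2, vertical axis). Filled points also passed with hCG, 34 among the red and 24 among the blue, and the dashed line marks equal changes. Of the 67 blue genes, 58 have the larger change with hCG+TRL+R5020, as do 24 of the 46 red genes.

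The differences between these effects were tested directly, and none passed. For hCG+TRL+R5020 minus hCG+TRL, 0 of 28862 probe sets (0.0%) passed, with a smallest adjusted p of 1.0 (limma) and 967 at an unadjusted p under 0.05 (3.35%). For hCG+TRL+R5020 minus hCG, 0 (0.0%) passed, with a smallest adjusted p of 0.68 (limma) and 1790 at an unadjusted p under 0.05 (6.2%). The intervals of single genes were wide. The difference from hCG alone was -1.72 for CH25H (95% interval -2.81 to -0.63), -1.56 for CLSPN (-2.69 to -0.43), -1.19 for MID1IP1 (-1.75 to -0.63) and -0.79 for JUNB (-1.21 to -0.38), each with an adjusted p of 0.80 (limma). In each of these genes the untreated mean was higher in set 2 than in set 1. It was 10.09 and 9.02 for CH25H, 11.57 and 10.58 for CLSPN, 11.57 and 10.61 for MID1IP1 and 9.19 and 8.57 for JUNB. In the same order, treated means were 7.77 and 8.41, 9.07 and 9.65, 10.64 and 10.88, and 8.57 and 8.73 (hCG+TRL+R5020, then hCG). These genes were picked among those called with hCG+TRL+R5020, so larger falls there follow in part from the choice. For FST the difference from hCG alone was -0.63 (-1.43 to 0.17) and for STAR 0.01 (-0.15 to 0.17), with adjusted p of 0.80 and 0.99 (limma). A smaller number of called genes than with hCG alone is thus not shown to be a smaller response.

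The medians of several of the 35 gene lists differed in size between the treatments, which was not tested. Cholesterol synthesis genes had medians of 0.41 with hCG+TRL+R5020, 0.53 with hCG+TRL and 0.75 with hCG. Of 19 members 1, 3 and 9 rose, against 0.438%, 1.06% and 3.83% of all genes. The 30 interferon-response genes had medians of 0.05, -0.66 and -0.47 in the same order, with 12, 28 and 28 members below 0. Of all 10506 genes 5203, 6178 and 4027 were below 0. None fell with hCG+TRL+R5020, 4 fell with hCG+TRL (IFIT1, IFIT3, IFIH1 and PARP9) and 1 with hCG (PARP9). The shares of all genes that fell were 0.638%, 1.5% and 1.12%. These interferon-response genes were named after their values were seen. PARP9 differed by -0.05, -1.02 and -0.91, and IFIT1 by 0.21, -1.24 and -0.86. IFI44, an interferon-induced gene, differed by 0.69, -0.94 and -0.92, and ISG15, a ubiquitin-like modifier, by 0.29, -1.26 and -0.97, without passing in any. DDX60 was at 0.77, 0.35 and 1.27, and also passed with hCG alone. The immediate early genes were at -0.38, -0.41 and -0.33, and steroid synthesis genes at 0.17, 0.10 and 0.24. The 2 set 1 comparisons share their untreated arrays, and the median of all genes was 0.00, -0.04 and 0.06.

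**Figure D5:**
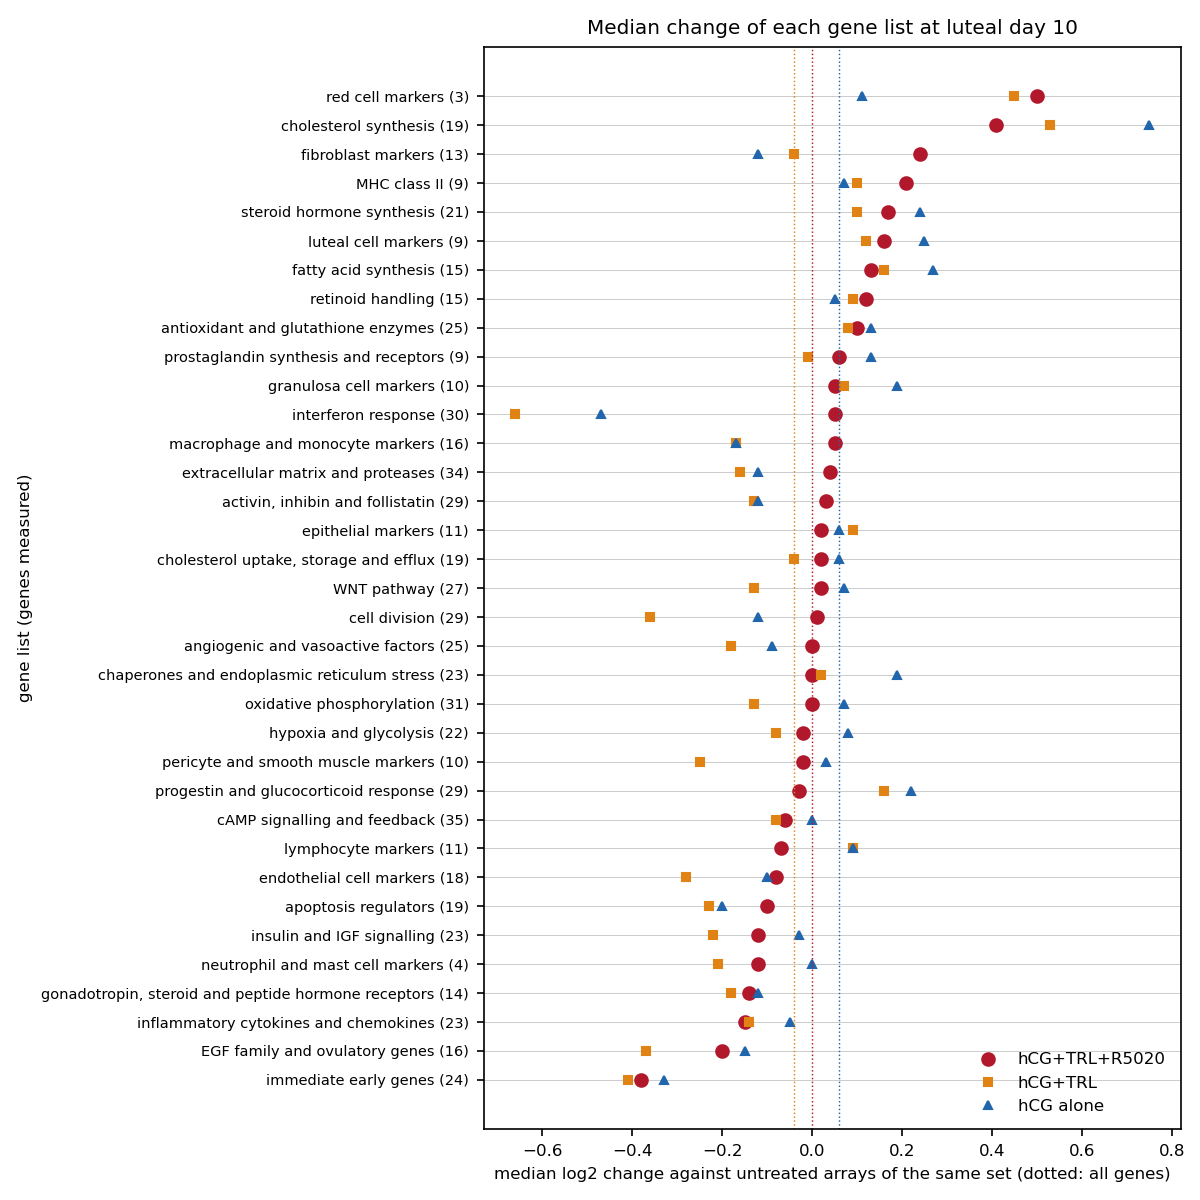
Median log2 change of each of the 35 gene lists in hCG+TRL+R5020 tissue (circles), hCG+TRL tissue (squares) and hCG tissue (triangles), each against the untreated arrays of its own array set, with the number of genes measured in brackets. Dotted lines mark the medians of all genes, at 0.00, -0.04 and 0.06, and the lists are ordered by the circles, from red cell markers at 0.50 to immediate early genes at -0.38.

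The lists left 91 of the 113 called genes uncovered. Some of these are named here after their values were seen. CEBPA, a transcription factor of differentiation, rose by 1.60, ADA, which deaminates adenosine, by 1.55, GADD45B, a stress-response gene, by 1.31, MRAP, an accessory protein of melanocortin receptors, by 0.97 and CPT1A, which brings fatty acids into mitochondria for oxidation, by 0.57 on the log2 scale (limma adjusted p from 0.0063 for MRAP to 0.044 for GADD45B). Among those that fell were RRAD, a small GTPase, by 1.45, the transcription factor SOX4 by 0.95, the chemokine-scavenging receptor ACKR3 by 1.05, and 3 regulators of kinase signalling, DUSP10 by 0.88, SPRY2 by 0.66 and TRIB1 by 0.61 (limma adjusted p from 0.0016 for RRAD to 0.038 for ACKR3). The calls of MRAP, RRAD, DUSP10 and SPRY2 held without any 1 array. Those of CEBPA, ADA, GADD45B, CPT1A, SOX4, ACKR3 and TRIB1 were each lost without at least 3 of the arrays in turn, with an adjusted p of up to 0.17 (limma) for ADA, GADD45B, CPT1A and ACKR3. RRAD was also among the 10 called in the fit of the 8 arrays alone, with USP53, IRS2, CITED2, DNAJB5, CHST7, ADM, VCAM1, ENOX1 and CH25H. MMP16, a membrane metalloprotease, rose by 0.95 with hCG+TRL+R5020, against 0.55 with hCG+TRL and 0.02 with hCG alone, and passed in neither of those. Its call held only without untreated replicate 8, with an adjusted p of up to 0.14 (limma), its other probe sets changed by 0.52 to 0.69 without passing, and its difference from hCG alone did not pass (limma adjusted p = 0.80).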

How the data were processed

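The authors deposited 1 table of log2 intensities by probe set. How these were background corrected, summarized and normalized is not given in the sources used here. They run from 2.60 to 15.12, and the 8 arrays compared had medians of 6.14 to 6.19. The number of arrays limits the precision. All per-sample columns were used.

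Of 52865 probe sets, 99 Affymetrix controls were left out. Arrays were centred on their medians, and 28862 probe sets were kept that lay above 6.19, the overall median, in 4 or more of 33 arrays. Symbols come from the platform annotation: 17603 kept probe sets have 1 symbol, 241 several and 11018 none. Of 24969 probe sets with 1 symbol, controls included, 24629 matched RefSeq by gene ID.

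One limma fit (limma 3.58.1 in R 4.3.3, by lmFit, then eBayes with its trend option) gave a mean to each group within each array set, 11 in all, with 22 residual degrees of freedom and a median residual SD of 0.213. Tests are two-sided, adjusted by Benjamini-Hochberg over all kept probe sets. The code was tested on simulated data. A list's mean deviation in an array averages, over its genes, the gene's level minus that gene's mean over the 8 arrays.

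The members, the 35 lists (1040 entries, 670 measured) and the naming rule were chosen with earlier results of these data known. The rule names the 12 largest rises and 12 largest falls among called genes whose arrays do not overlap, up to 4 called members of each list, and genes fixed by name. CYP11A1, LHCGR, PTGS2 and VEGFA, among the genes fixed by name, are not analysed here. No sequences or genome positions were used.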

Additional observations from a re-analysis of the deposited data

Results flagged for a closer look

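FKBP5 in hCG+TRL+R5020 replicate 3 read 8.89, against 7.66, 7.52 and 7.60 in the other 3 arrays of the group, so that the gap to the nearest array took 0.893 of the group's range, past Dixon's critical value for 4 samples. The untreated arrays read 7.17, 7.30, 7.84 and 7.09. Chance sets apart about 1 in 20 groups, and 1 of 100 groups of 4 was set apart here. That array's values for ELF5 and TMPRSS7, 8.84 and 8.87, were also the highest of its group.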

How the results depend on the processing

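The comparison of hCG+TRL+R5020 with untreated tissue called 268 probe sets, and the count stayed within 1.5 times of that with values as deposited (285), quantile normalization (284), no filter (213), no trend (267), a filter on the arrays compared (271) and additive terms (358). The fit of only the arrays of a comparison gave 20, against 275 for hCG+TRL and 604 for hCG. Leaving out 1 array gave 128 to 397, against 377 to 616 for hCG+TRL and 484 to 1619 for hCG. The difference from hCG ran from 0 to 1 probe set, the 1 without hCG replicate 1, and the difference from hCG+TRL stayed at 0. The cause of these changes was not tested, beyond the fewer samples in each fit. No paired analysis was possible because hCG+TRL+R5020 and its untreated arrays share no replicate numbers. In set 1 the numbers do not pair the samples (r of same-numbered deviations -0.382 to 0.431), and the replicate block gave 251 calls for hCG+TRL and 378 for hCG. Scaling moved the set 1 splits of higher to lower, for hCG+TRL 291 to 383 centred, 321 to 305 as deposited and 403 to 299 with quantile normalization, and for hCG 872 to 329, 776 to 427 and 840 to 482.

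Of the 113 called genes, 37 passed without any 1 array, 76 were lost without at least 1, and all 113 had the same sign in every such refit. Among the 50 named genes no value changed sign, 2 passed only without untreated replicate 7 (CYP19A1 and DHCR7), and 153 refitted values no longer passed, 105 of them with 1 array left out, 32 in the fit of the 8 arrays and 16 under other settings, among them PLCG2 (adjusted p = 0.059 with additive terms, limma) and PGF (0.072 with quantile normalization, limma). Depth is limited by signal: 6 called genes averaged under 6.19 in 1 group.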
